A study of Petromyzon marinus with 12 samples.

Results

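This comparison set the last sampled stage of the sea lamprey (Petromyzon marinus) endostyle, T30, against the first, T27, in bulk RNA sequencing. Its members were chosen by the stage in each sample's label: 3 libraries of T30 and 3 of T27, 6 of the 12 libraries of the series, all of them labelled wild type with no treatment other than stage. The other 6 libraries, 3 of T28 and 3 of T29, were used for the common estimate of spread and to show when a change took place. The labels give neither the staging scheme, the age of the larvae nor the number of animals pooled in a library. They do not say either that the 3 libraries of a stage came from separate animals, so the p-values below measure the spread between these libraries, which may be technical.

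The endostyle is a mucus-secreting gland that runs along the underside of the gill basket in filter-feeding chordates, the lamprey larva among them. Its ciliated and glandular bands make and move the mucus that traps food, and a zone of it binds iodine. In lampreys it becomes the thyroid follicles at metamorphosis. Thyroid hormone is made where iodide, taken up by a sodium-coupled transporter, is bound to tyrosines of a protein. Secretory cells of such a gland send their products out through the endoplasmic reticulum, the Golgi and vesicles, and add sugar chains on the way.

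The label was checked against genes that define an endostyle or a thyroid. The iodide transporter SLC5A5 and the endostyle and thyroid factors PAX2 and HHEX were all present at both stages. PAX2 had 131, 126 and 116 CPM at T30, against 83.4, 73.6 and 71.2 CPM at T27. HHEX, a homeobox factor of the thyroid primordium, had 109, 124 and 95.02 CPM at T30, against 87.5, 83.4 and 82.9 CPM at T27. Both stages held RNA of this organ's regulators, while SLC5A5 was low at T27 and high at T30, as given below. Thyroglobulin and NKX2-1 were not matched by name in the count table and were not analysed here.

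Values are counts per 1000000 (CPM), scaled by TMM, a factor per library that evens out the bulk of the genes. A CPM is a share of a library, so a gene can gain CPM through more RNA per cell or through more cells that make it, and in bulk samples these cannot be told apart. The 3 T30 libraries held 28371140 to 35423591 counts and the 3 T27 libraries 31038776 to 32511089. A gene is said to have risen or fallen at T30 where its adjusted p in edgeR's quasi-likelihood test was under 0.05.

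Over the whole span 11376 of 16526 genes tested changed, which is 68.8% of them. Of all genes tested, 34.8% rose (5747 genes) and 34.1% fell (5629 genes). A stricter test, whether the change itself was past 2-fold, called 2229 genes higher (13.5%) and 1283 lower (7.76%). The libraries of T30 and T27 did not overlap for 71.5% of genes. Counts of members are read against these shares. T30 replicate 2 and T27 replicate 1 lay apart from their stages in several genes named below. Leaving them out changed little: 11178 genes were called without T30 replicate 2 and 10947 without T27 replicate 1. T27 replicate 3 stood apart in others, such as HSPA8 and PCNA. The fewest genes, 10741, were called without T30 replicate 1, and 10757 were called without T27 replicate 3.

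Among abundant genes more fell than rose, whereas among rare genes more rose than fell. Of 2033 genes that averaged at least 100 CPM over the 6 libraries, 28.7% rose and 50.4% fell, with a median log2 change of -0.20, against a median of 0.01 over all genes tested. Among the 1930 genes under 1 CPM, 32.2% rose and 19.2% fell, both below the shares of all genes tested. In CPM, T30 gained 234759 over 8373 genes and lost 250303 over 8153 genes. With library totals and no TMM factor, the gain and the loss were equal, at 244515 CPM each. The gain was the more concentrated in its first genes, but not at its midpoint. The first 100 genes of the gain held 42.6% of it, whereas the first 100 of the loss held 30.2%. The midpoint of the gain was reached with 590 genes and that of the loss with 493.

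**Figure D1:**
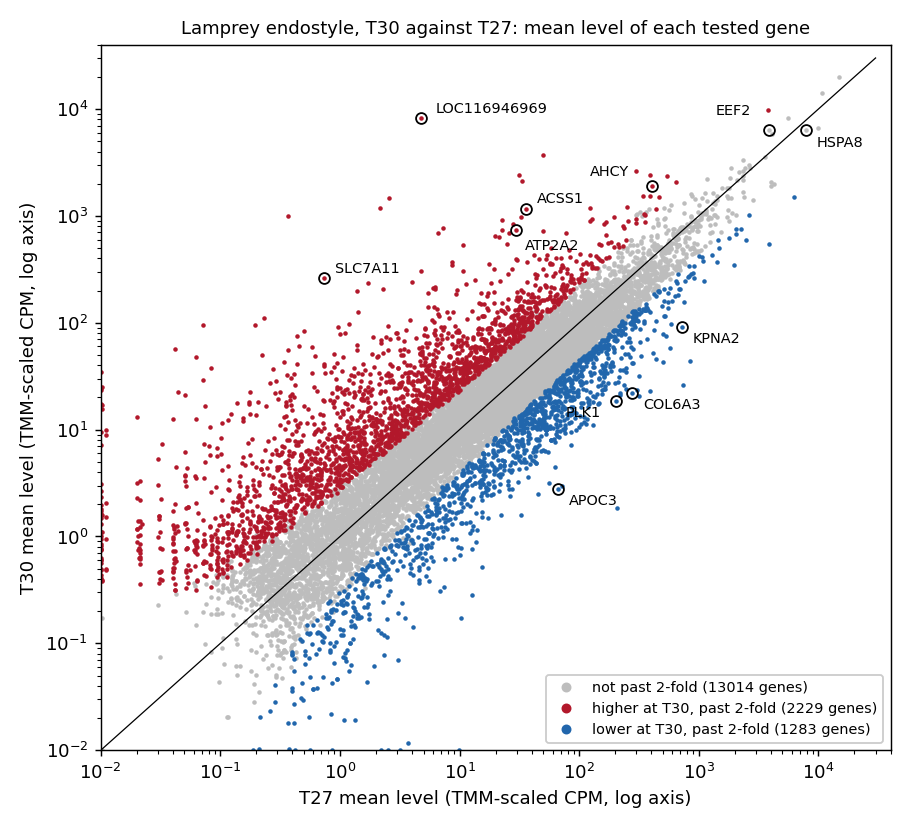
Mean level of each of 16526 tested genes at T30 (vertical axis) and T27 (horizontal axis), in TMM-scaled CPM on log axes, with means under 0.01 CPM drawn at 0.01. Red points are the 2229 genes past 2-fold higher at T30 and blue points the 1283 past 2-fold lower, the line marks equal levels, and 11 circled genes are named, among them SLC7A11, far above the line, and KPNA2, far below it.

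Among named genes, EEF2, COX1, AHCY, MPC1 and ACSS1 gained the most CPM. This order depends on the unit, since CPM is not divided by exon length. Of the 20 named genes that gained most CPM, 11 were also among the 20 that gained most per exon length, as TPM. For the 20 that lost most, the number was 10. EEF2, the factor that moves the ribosome along the mRNA, had 5944, 7486 and 5831 CPM at T30, against 3859, 3555 and 4261 CPM at T27 (log2 change 0.72, SE 0.10, adjusted p = 1.8e-05). It was already abundant, and every T30 library lay above every T27 library. AHCY, the enzyme that clears S-adenosylhomocysteine left by methylation, had 1771, 2084 and 1805 CPM at T30, against 388, 377 and 441 CPM at T27. That is a 4.69-fold rise (log2 change 2.23, SE 0.09, adjusted p = 3.6e-11) on 184941 counts at T30 and 38240 at T27 over 3 libraries each. MPC1, a subunit of the carrier that brings pyruvate into mitochondria, had 1619.7, 1737 and 1246 CPM at T30, against 347, 319.8 and 366 CPM at T27 (log2 change 2.16, SE 0.11, adjusted p = 3.5e-10). ACSS1, the mitochondrial enzyme that makes acetyl-CoA from acetate, had 1356, 1148 and 980.5 CPM at T30, against 49.7, 26.4 and 32.6 CPM at T27 (log2 change 5.001, SE 0.24, adjusted p = 2.1e-10). None of these 3 enzymes and carriers had overlapping libraries, and ACSS1 rose from a mean of 36.2 CPM at T27 to 1162 CPM at T30.

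The next named gainers were of mixed function. PABPC1, the poly(A)-binding protein, averaged 3352 ± 293 CPM at T30 and 2338 ± 159 CPM at T27 (SD, n = 3 each). FTH1, the heavy chain of the iron store ferritin, averaged 2813 ± 378 CPM at T30 and 1847 ± 266 CPM at T27. MFRP, a membrane protein with a frizzled-related domain that is known in mammals from the eye, averaged 1206 ± 182 CPM at T30 and 249 ± 26.8 CPM at T27, a 4.84-fold rise. HDLBP, an RNA-binding protein also called vigilin, averaged 1588 ± 103 CPM at T30 and 857 ± 38.9 CPM at T27. These rises were seen in every library of T30 relative to T27. TNIP1, a brake on NF-kappa-B signalling, averaged 1012 ± 116 CPM at T30 and 354 ± 8.16 CPM at T27. DDX17, an RNA helicase, rose 3.23-fold. RPS2, a protein of the small ribosomal subunit, had 1870.4, 2733 and 2154 CPM at T30, against 1747, 1601 and 2085 CPM at T27, with overlapping libraries. Its call (adjusted p = 0.042) was lost under 5 of 13 alternatives, with adjusted p between 0.0516 and 0.247 there and between 0.00783 and 0.247 over all 13.

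**Figure D2:**
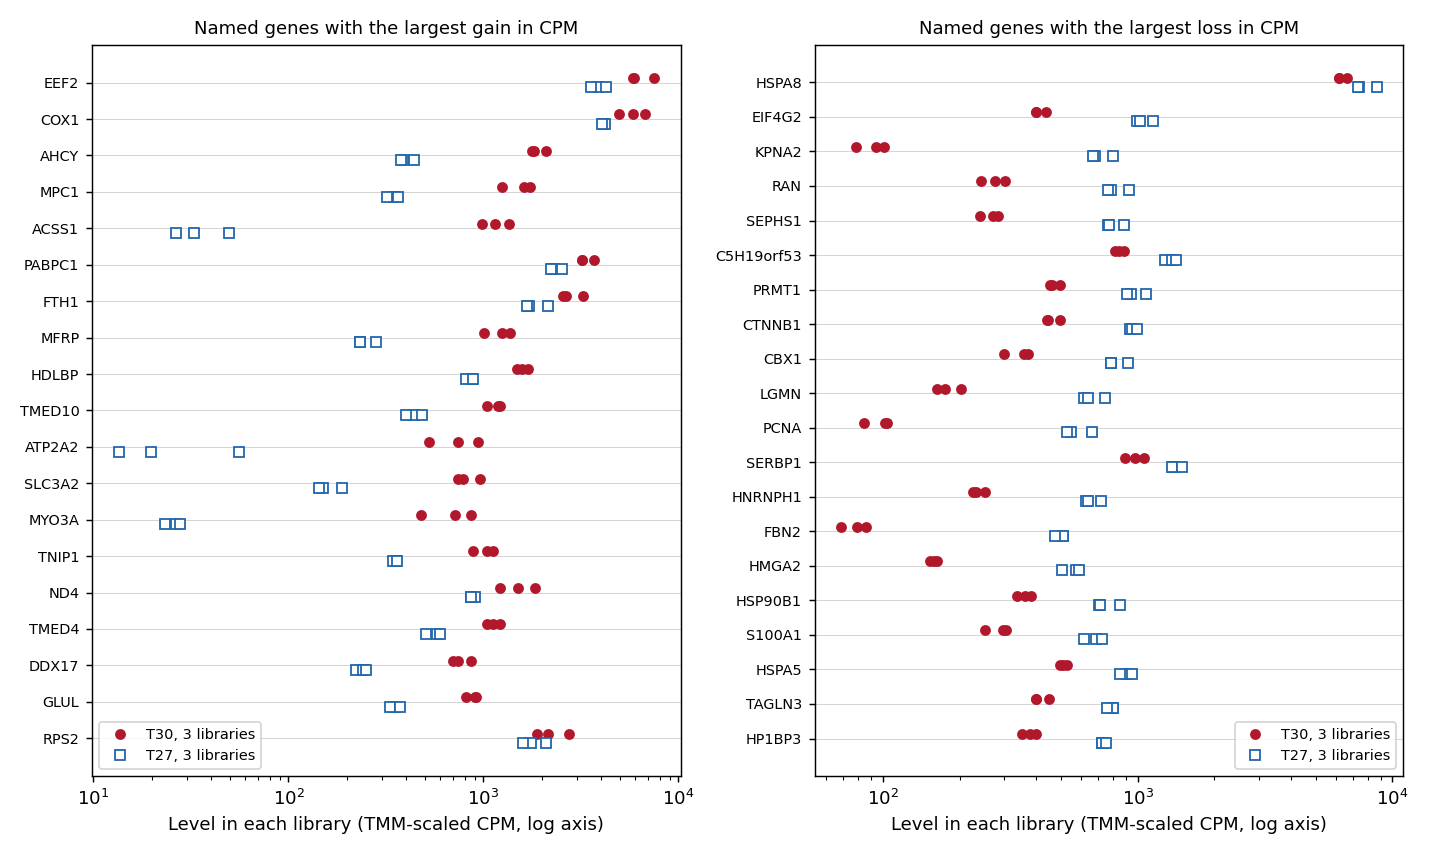
Level in each library, in TMM-scaled CPM on a log axis, of 19 named genes among the 20 with the largest gain (left) and of the 20 with the largest loss (right) at T30 against T27. Filled circles are the 3 T30 libraries and open squares the 3 T27 libraries. ACSS1, MYO3A and ATP2A2 stand furthest apart on the left and KPNA2, FBN2 and PCNA on the right, and RPS2 is the gene whose symbols overlap.

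Of the genes for hormone production reported here, the iodide transporter gained the most CPM. SLC5A5, which carries iodide into the cell together with sodium, lies on NC_046108.1 (bases 2274675 to 2295804, minus strand) of the kPetMar1 assembly. It had 102, 95.6 and 119 CPM at T30, against 6.97, 5.34 and 5.48 CPM at T27, a 17.8-fold rise (log2 change 4.15, SE 0.13, adjusted p = 4.4e-12). All T30 libraries were high and all T27 libraries low, with no overlap. SLC5A5 stood at 100 CPM or more at T30 and under 10 CPM at T27, as did the cystine transporter SLC7A11, at 259.5 CPM at T30 and 0.742 CPM at T27. Another 30 genes of that kind were loci without a name, whereas the reverse fall was seen in a single gene, also without a name. In the list of hormone production, 6 rose and 1 fell of 12, and its summed level was 598, 617 and 569 CPM at T30, against 378, 397 and 427 CPM at T27. With SLC5A5 left out, the sum was 1.24 times that of T27, and per exon length the whole sum was lower at T30 (log2 ratio -0.24 as TPM). The member that fell was CTSB, the lysosomal protease cathepsin B, at 20.7 CPM at T30 and 96.9 CPM at T27. Per exon length CTSB had 47.21 TPM at T30 and 218.1 TPM at T27, whereas SLC5A5 rose, at 37.46 and 2.077 TPM. LRP2, the endocytic receptor megalin, rose to 82.7 CPM at T30, against 9.33 CPM at T27. IYD, which frees iodide from iodotyrosines, had 85.1, 89.3 and 106 CPM at T30, against 40.4, 40.4 and 41.03 CPM at T27 (log2 change 1.20, SE 0.10, adjusted p = 9.1e-08). Of regulators of the thyroid and pharynx, 5 rose and 2 fell of 8, and the sum at T30 was 1.15 times that at T27, a direction that turns round per exon length (log2 ratio -0.02 as TPM). SOX2, a factor of epithelial progenitors, was among those that rose (98.1 CPM at T30 and 63.3 CPM at T27), and ISL1, a LIM homeobox factor, fell to 30.3 CPM at T30, against 81.4 CPM at T27.

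Enzymes of amino acid and one-carbon metabolism had the largest ratio of T30 to T27 sums among the metabolic lists. Of this list, 22 rose and 7 fell of 32, 68.8% rising against 34.8% of all genes, and 16 of the risers were past 2-fold. The summed level was 5284, 5808 and 5568 CPM at T30, against 2216, 2125 and 2373 CPM at T27, 2.48 times higher at T30 and 1.997 times with AHCY left out, with a median log2 change of 1.23 against 0.01 over all genes. Beside AHCY, the largest gains were in GLUL, CTH and PHGDH. GLUL, which makes glutamine from glutamate and ammonia, had 809, 902 and 919.6 CPM at T30, against 353, 332 and 373 CPM at T27. CTH, which releases cysteine from cystathionine, had 449, 538 and 499 CPM at T30, against 63.01, 49.5 and 63.4 CPM at T27 (log2 change 3.08, SE 0.11, adjusted p = 1.6e-11). PHGDH, the first enzyme of serine synthesis, had 455, 460.2 and 507 CPM at T30, against 81.5, 79.9 and 87.3 CPM at T27 (log2 change 2.52, SE 0.08, adjusted p = 5.7e-12). For each of the 3 every T30 library was above every T27 library. The members of this list named next were picked after their values were seen. TYMS, which makes the thymidylate needed for DNA, fell to 17.7 CPM at T30, against 107 CPM at T27. SHMT1, a cytosolic enzyme of the folate cycle, fell to 12.3 CPM at T30, against 48.6 CPM at T27. MTHFD1, also cytosolic and of the same cycle, fell to 60.01 CPM at T30, against 137 CPM at T27. SHMT2, the mitochondrial counterpart of SHMT1, rose, at 224 CPM at T30 and 101 CPM at T27.

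SLC3A2, the heavy chain that carries several amino acid exchangers to the cell surface, had 744, 962 and 787 CPM at T30, against 151, 143 and 188 CPM at T27 (log2 change 2.37, SE 0.11, adjusted p = 1.9e-10). SLC7A11, a light chain that pairs with it to exchange cystine for glutamate, had 227, 226 and 325 CPM at T30, against 0.543, 0.714 and 0.969 CPM at T27. At T27 SLC7A11 was near the limit of what is measured, so its fold rests on few T27 counts. Of all solute carriers, 66 rose and 21 fell of 126, and their sum was 1.29 times higher at T30. SLC12A8, of the cation-chloride cotransporter family, averaged 403 ± 79.1 CPM at T30 and 63.6 ± 8.37 CPM at T27, and SLC25A3, the mitochondrial phosphate carrier, fell to 388 ± 27.7 CPM at T30, against 578 ± 41.9 CPM at T27. In the list of antioxidant and glutathione genes, 7 rose and 7 fell of 22. GPX4, which reduces lipid peroxides, rose (209 CPM at T30 and 76.1 CPM at T27), and MGST3, a membrane glutathione transferase, fell (195 CPM at T30 and 359.9 CPM at T27).

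Mitochondrial genes split by where they are coded and what they do. Of the genes for proteins in the mitochondrial genome, 7 rose and 0 fell of 13, and the sum was 19850.4, 17619 and 24147 CPM at T30, against 15911, 16190 and 16372 CPM at T27. No member reached an unadjusted p under 0.05 downward in edgeR's test, and neither DESeq2 nor limma voom called one. COX1, the catalytic subunit of cytochrome c oxidase, had 5824, 4963 and 6695 CPM at T30, against 4105, 4186 and 4072 CPM at T27 (log2 change 0.50, SE 0.12, adjusted p = 0.0014). ND4, a subunit of complex I, had 1509.8, 1216 and 1828 CPM at T30, against 864, 901 and 862 CPM at T27. In both genes and in the sum the T30 libraries were spread widely, replicate 2 being the lowest and replicate 3 the highest, and all of them were above T27. Subunits of the respiratory chain coded in the nucleus showed little: 2 rose and 18 fell of 58, the sums overlapped, and the T30 sum was 0.908 times the T27 sum. The 2 that rose, NDUFS8 and ATP5F1E, varied with the settings, which gave between 0 and 6 risers. Proteins of the mitochondrial ribosome fell almost throughout. Of these, 1 rose and 65 fell of 74, 87.8% against 34.1% of all genes, mostly by small folds with a median log2 change of -0.61. The sum was 2725, 3033 and 2853 CPM at T30, against 4088, 3945 and 4574 CPM at T27. MRPL11 was the member with the largest loss, at 66.8 ± 4.03 CPM at T30 and 156 ± 12 CPM at T27. The 1 riser, MRPS36, was placed in this list by its name alone, at 34.1 CPM at T30 and 20.4 CPM at T27.

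In the citric acid cycle, 7 rose and 5 fell of 19, near the background, and the sums overlapped. SUCLG2, the GTP-forming subunit of succinyl-CoA synthetase, had 395, 392 and 265 CPM at T30, against 119.6, 114 and 123 CPM at T27, and SUCLA2, its ATP-forming counterpart, averaged 103 CPM at T30 and 169.5 CPM at T27. IDH3A, the catalytic subunit of the NAD-dependent isocitrate dehydrogenase, rose as well, at 41.1 CPM at T30 and 5.90 CPM at T27. Its partner IDH3B averaged 28.7 CPM at T30 and 7.29 CPM at T27. IDH2, the mitochondrial NADP-dependent isocitrate dehydrogenase and the more abundant gene, fell (358 CPM at T30 and 432 CPM at T27), a call lost under 1 of 13 alternatives, with adjusted p between 0.00275 and 0.0505 over all 13. MDH1, the cytosolic malate dehydrogenase, fell (175 CPM at T30 and 247 CPM at T27). SUCLA2, IDH3A and IDH3B were picked after their values were seen. ACSS3, which activates propionate in mitochondria, was among the 10 abundant named genes of highest fold, with 288, 269 and 153 CPM at T30, against 17.6, 19.6 and 17.7 CPM at T27. In lipid and sterol metabolism, 9 rose and 20 fell of 34, and the T30 sum was 0.910 times that of T27. ACAA2, a mitochondrial thiolase of fatty acid oxidation, averaged 525 ± 34.4 CPM at T30 and 233 ± 13.7 CPM at T27, and without it the sum of this list was 0.795 times that of T27. Both subunits of the trifunctional protein, which acts on long chains in the same pathway, fell. HADHA fell to 175 CPM at T30, against 355 CPM at T27. HADHB fell to 144 CPM at T30, against 226 CPM at T27. EBP, a sterol isomerase of cholesterol synthesis, averaged 69.4 CPM at T30 and 197 CPM at T27. Of 6 glycolytic genes measured by name, 1 rose and 3 fell. GAPDH was the riser, with 483, 292 and 419 CPM at T30, against 50.9, 40.02 and 46.1 CPM at T27, and PFKP, a phosphofructokinase, fell (121 CPM at T30 and 239 CPM at T27).

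On the outward path of secretion, genes of vesicle coats and the Golgi mostly rose. Of the list of vesicle coats and Golgi proteins, 26 rose and 5 fell of 35, 74.3% rising, and the sum was 6699, 7210.1 and 7195 CPM at T30, against 4428, 4200 and 4618 CPM at T27. The 3 with the largest gain belonged to the TMED family, which sort cargo into vesicles between the endoplasmic reticulum and the Golgi. TMED10 had 1047, 1222 and 1194 CPM at T30, against 440.4, 399.7 and 481 CPM at T27 (log2 change 1.39, SE 0.09, adjusted p = 3.1e-09). TMED4 had 1042, 1218 and 1121 CPM at T30, against 578, 509 and 599.6 CPM at T27. TMED2 averaged 586 ± 47.2 CPM at T30 and 328 ± 17.6 CPM at T27, and was already at 618 ± 18.1 CPM at T29. No T30 library of the 3 genes overlapped a T27 library. SEC16A, which marks the sites where such vesicles leave, averaged 258 ± 40.1 CPM at T30 and 87.9 ± 4.72 CPM at T27, a 2.93-fold rise. GOLGB1, a long tether of the Golgi stack named here after its values were seen, averaged 157 CPM at T30 and 70.2 CPM at T27. The 5 members that fell were SURF4, TMED8, ERGIC1, ERGIC2 and SEC24B, the most abundant of them, TMED8, at 57 CPM at T30 and 79.5 CPM at T27.

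Genes for sugar addition to secreted proteins rose as well. Among mucins, glycosylation enzymes and gland products, 16 rose and 3 fell of 28, and the sum was 1.499 times higher at T30. Enzymes of the GALNT family start the O-linked sugar chains of mucins. GALNT2 averaged 151 CPM at T30 and 102 CPM at T27. GALNT3 averaged 70.02 CPM at T30 and 34.9 CPM at T27. GALNT15 averaged 127 CPM at T30 and 58.9 CPM at T27. All 3 rose. B3GNT2, which extends sugar chains, rose 5.24-fold, to 102 CPM at T30, against 19.5 CPM at T27. Genes of folding and translocation in the endoplasmic reticulum did not change as a group: 22 rose and 17 fell of 52, and its sums overlapped at a T30 to T27 ratio of 1.002. Within it SEC61A1, the channel through which new chains enter, had 770.2, 904 and 812 CPM at T30, against 458, 427 and 486 CPM at T27, whereas the folding chaperones HSPA5 and HSP90B1 had fallen. HSPA5 had 508, 527 and 495 CPM at T30, against 906, 850.3 and 948 CPM at T27. HSP90B1 had 361, 381 and 335 CPM at T30, against 706, 712 and 850.3 CPM at T27. PDIA3, which shuffles disulphide bonds, averaged 965 ± 98.6 CPM at T30 and 1274 ± 139.9 CPM at T27. Lysosome and V-ATPase genes were near the background, as 16 rose and 17 fell of 45. Of these PSAP, the precursor of the saposins that help break down sphingolipids, rose (698 CPM at T30 and 529 CPM at T27). LAMP1, of the lysosome membrane, rose too (747 CPM at T30 and 607 CPM at T27). The asparaginyl protease LGMN fell to 180.2 ± 19.8 CPM at T30, against 666 ± 69.2 CPM at T27.

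Genes of motile cilia rose. Of 89 genes in this list, 80 rose and 1 fell, and the summed level was 6374, 6464 and 7201 CPM at T30, against 3413, 2746 and 3079 CPM at T27. DNAH5, a heavy chain of the outer dynein arm, gained the most, with 439, 349.8 and 496 CPM at T30, against 64.9, 48.2 and 47.7 CPM at T27 (log2 change 2.998, SE 0.15, adjusted p = 2.9e-10). DNAH9, another outer arm chain, averaged 187 CPM at T30 and 37.3 CPM at T27. DNAH6, of an inner arm, averaged 175 CPM at T30 and 31.8 CPM at T27. Both dyneins rose. The faller, IFT43, of the intraflagellar transport complex (28.5 CPM at T30 and 35.2 CPM at T27), lost its call under 4 of 13 alternatives. The actin list as a whole was near the background, as 7 rose and 9 fell of 26, and its sum, 1.11 times that of T27, was lower than T27 per exon length (log2 ratio -0.18 as TPM) and 0.941 times that of T27 with MYO3A left out. MYO3A, an actin motor with a kinase domain known from stereocilia of the vertebrate inner ear, had 715, 480.1 and 866 CPM at T30, against 26.5, 27.6 and 23.2 CPM at T27 (log2 change 4.74, SE 0.18, adjusted p = 1.8e-11). MYO15A, another motor known from stereocilia, had 251, 203 and 289.5 CPM at T30, against 25.8, 19.8 and 20.1 CPM at T27. MYO6, a motor that walks toward the minus end of actin, averaged 539 ± 33.2 CPM at T30 and 283 ± 22.2 CPM at T27. A further 3 risers, ESPN, VIL1 and MYO7A, were picked after their values were seen. They do not stand for the actin list, in which 9 members fell and 7 rose. The bundler ESPN averaged 92.1 CPM at T30 and 38.9 CPM at T27. The microvillar protein VIL1 averaged 199.6 CPM at T30 and 72.8 CPM at T27. The motor MYO7A averaged 78.9 CPM at T30 and 15.1 CPM at T27. Of the 9 members that fell, only TAGLN3 and ACTR2 are named here. TAGLN3, of the transgelin family of actin-binding proteins, fell to 416 CPM at T30, against 785 CPM at T27. ACTR2, of the complex that branches actin, fell to 154 CPM at T30, against 315 CPM at T27. Tubulins and microtubule proteins split, as 11 rose and 13 fell of 33. KLC1, a light chain of the kinesin motor, rose (230.2 CPM at T30 and 73.2 CPM at T27). TPPP3, which stabilises microtubules, rose (219 CPM at T30 and 71.2 CPM at T27). CKAP5, which builds the mitotic spindle, fell (113 CPM at T30 and 233 CPM at T27).

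Muscle genes rose at T30 and varied between its libraries. In the list of muscle and sarcomere genes, 19 rose and 1 fell of 25, with SRL the member that fell, and the sum was 1770.1, 1062 and 1447 CPM at T30, against 386, 353 and 359.9 CPM at T27. No member of the 25 was without a count at either stage. ACTN2, which anchors thin filaments, had 569.8, 312 and 398 CPM at T30, against 51.7, 35.3 and 39.9 CPM at T27. TTN, the giant spring of the sarcomere, had 204, 86.4 and 243 CPM at T30, against 17.9, 16.6 and 16.8 CPM at T27. In both genes T30 replicate 2 was the lowest T30 library. ATP2A2, the calcium pump of the sarcoplasmic and endoplasmic reticulum, stood in the list of ion pumps and had 942, 527 and 739.6 CPM at T30, against 55.5, 19.6 and 13.5 CPM at T27 (log2 change 4.64, SE 0.46, adjusted p = 3.8e-07). It too was lowest in T30 replicate 2 and highest at T27 in replicate 1, as was GAPDH above. The part of muscle tissue in the ATP2A2 and GAPDH values was not tested. Of all ion pumps and channels, 19 rose and 5 fell of 36, and the sum was 2.29 times higher at T30. ATP2A2 held that rise, since without it the sums overlapped, at 576, 565 and 528 CPM at T30, against 543, 544 and 519 CPM at T27. SCNN1B, a subunit of the epithelial sodium channel, fell (35.8 CPM at T30 and 96.3 CPM at T27).

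**Figure D3:**
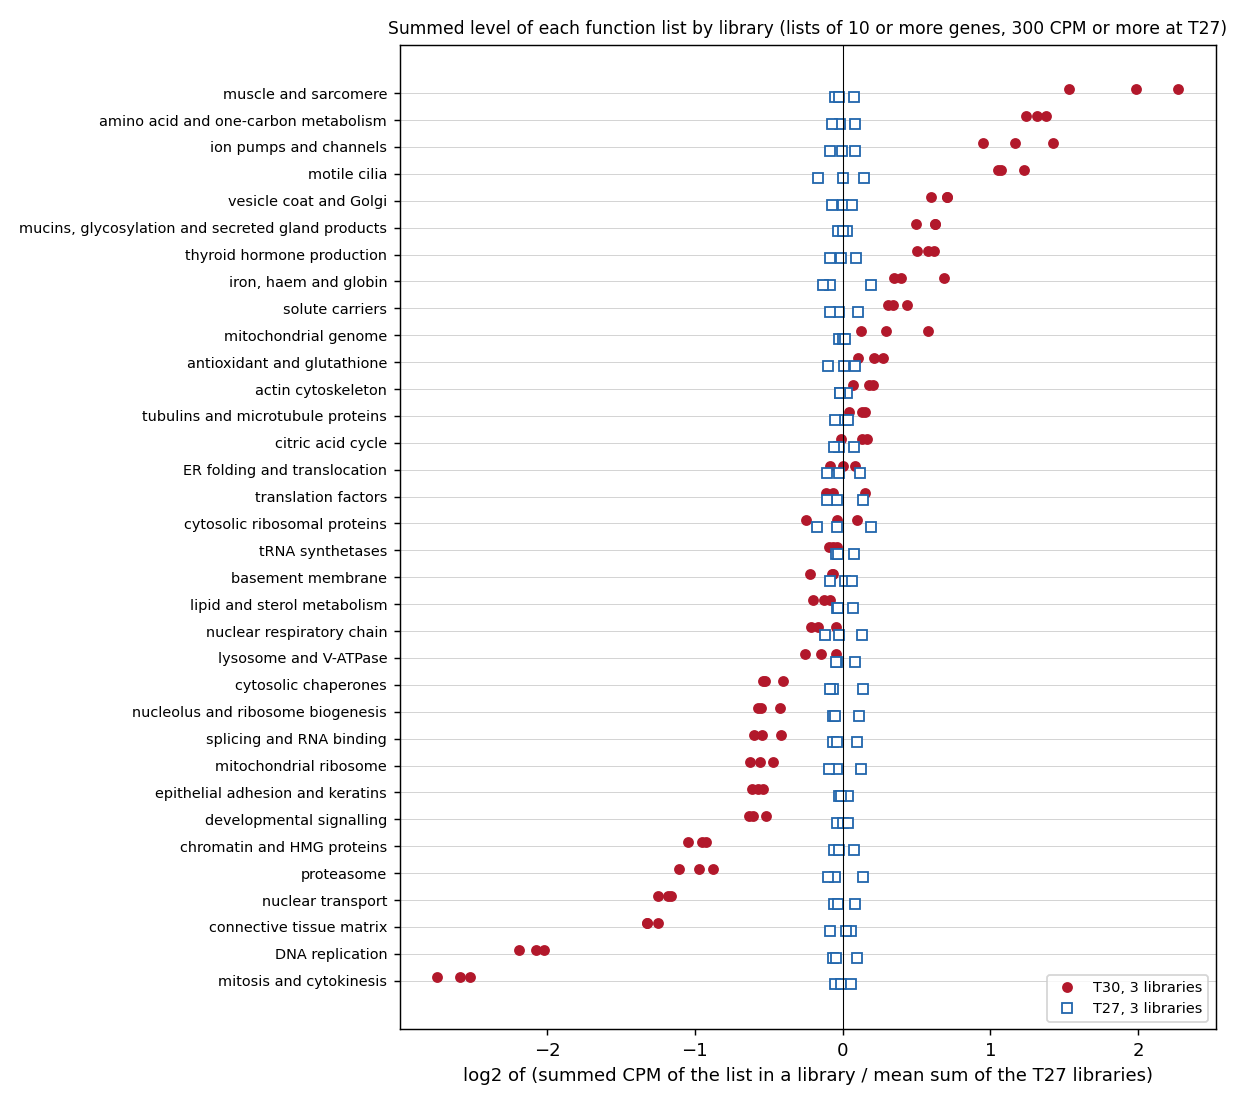
Summed level of function lists in each library as the log2 of its ratio to the mean sum of the 3 T27 libraries, for lists of 10 or more genes with at least 300 CPM at T27. Filled circles are the 3 T30 libraries and open squares the 3 T27 libraries. Muscle, amino acid metabolism and motile cilia lie to the right, mitosis and DNA replication to the left, and translation factors and cytosolic ribosomal proteins around the line of no change.

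On the losing side, genes of DNA copying, cell division and nuclear traffic fell nearly throughout. Of 52 genes of DNA replication 50 fell and 0 rose, with 2 genes whose values were not called, NASP and ORC3, and the T30 sum was 0.235 times that of T27. All 41 genes of mitosis and cytokinesis fell, each past 2-fold, and the sum at T30 was 0.163 times that at T27. PCNA, the sliding clamp of DNA polymerase, had 84.3, 102 and 104 CPM at T30, against 549.7, 529.9 and 659.8 CPM at T27 (log2 change -2.59, SE 0.11, adjusted p = 7e-11). PLK1, a kinase of mitosis, had 16.6, 19.3 and 19.9 CPM at T30, against 200.3, 199 and 216 CPM at T27 (log2 change -3.46, SE 0.10, adjusted p = 3e-12). UBE2C, which tags mitotic proteins for breakdown, averaged 23.9 ± 2.72 CPM at T30 and 245 ± 17.4 CPM at T27. CCNB2, a mitotic cyclin, averaged 25.97 ± 5.56 CPM at T30 and 237 ± 15.99 CPM at T27. In these 4 genes the stages lay far apart. Chromatin proteins fell in 15 of 16 genes. In none of the lists of replication, mitosis, chromatin and nuclear transport did a member reach an unadjusted p under 0.05 upward in edgeR's test, and neither DESeq2 nor limma voom called one higher. Of 13 alternatives, 1 called a replication member higher (without T27 replicate 3) and 1 a chromatin member (without T30 replicate 2). CBX1, a reader of silent chromatin, had 299, 358 and 372 CPM at T30, against 786, 788 and 920.4 CPM at T27. HMGA2, a DNA-bending protein of growing embryonic tissue, had 153, 159 and 163 CPM at T30, against 506, 575 and 587 CPM at T27.

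Nuclear transport also fell. Of 46 genes, 44 fell and 0 rose, 19 of them past 2-fold, and the sum was 2597, 2763 and 2725 CPM at T30, against 5951, 6049 and 6549.9 CPM at T27. KPNA2, an importin alpha that carries cargo into the nucleus, had 78.7, 101 and 93.7 CPM at T30, against 683, 667 and 799 CPM at T27 (log2 change -2.97, SE 0.11, adjusted p = 1.8e-11). RAN, the small GTPase that gives transport its direction, had 243, 301 and 275 CPM at T30, against 789, 766 and 924 CPM at T27 (log2 change -1.60, SE 0.10, adjusted p = 2.4e-09). For both genes the 3 libraries of each stage lay close together. KPNB1, the importin beta that pairs with KPNA2, averaged 98.8 ± 1.88 CPM at T30 and 242 ± 8.15 CPM at T27. IPO5, another importin, averaged 125 ± 6.55 CPM at T30 and 275 ± 7.78 CPM at T27. The 2 not called were XPO6 and KPNA5, and KPNA5, another importin alpha, held 164 CPM at T30 and 167 CPM at T27.

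RNA processing fell as well, with exceptions. Of splicing and RNA-binding genes, 5 rose and 39 fell of 51, and the sum was 7850.2, 7556 and 8597 CPM at T30, against 10954, 11149 and 12269 CPM at T27. SNRPA, of the U1 particle of the spliceosome, averaged 159.9 ± 6.31 CPM at T30 and 515 ± 58.3 CPM at T27. SNRPB, of its common core, averaged 142 ± 8.94 CPM at T30 and 492 ± 41.4 CPM at T27. HNRNPH1, which binds G-rich RNA, averaged 236 ± 13.1 CPM at T30 and 662 ± 50.3 CPM at T27. The 5 that rose were DDX17, RBM25, SRSF5, RBM39 and PRPF18, DDX17 with 738, 697 and 864 CPM at T30, against 222, 240.3 and 250.5 CPM at T27. PRMT1, the main methyltransferase of arginines in RNA-binding proteins, was also among the 20 named genes of largest loss, with 452, 496 and 462 CPM at T30, against 939, 907 and 1077 CPM at T27.

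Genes of ribosome assembly fell, while the summed level of the ribosomal proteins overlapped between the stages. Of nucleolar and ribosome assembly genes, 2 rose and 59 fell of 74, and the sum was 0.700 times that of T27. FBL, the methyltransferase of ribosomal RNA, averaged 108 ± 5.30 CPM at T30 and 221 ± 24.05 CPM at T27. GAR1, of the pseudouridine-forming complexes, averaged 70.01 ± 6.11 CPM at T30 and 154 ± 15.5 CPM at T27. The 2 that rose were NOP56 (366 CPM at T30 and 299 CPM at T27) and NMD3 (50.8 CPM at T30 and 22.9 CPM at T27). Of 73 cytosolic ribosomal proteins 2 rose and 12 fell, and the sums were 52115, 66071 and 60081 CPM at T30, against 60049.6, 54720.3 and 70478 CPM at T27. Those counts are unstable, with 1 to 6 risers and 4 to 20 fallers over 13 alternatives, and reads of ribosomal protein genes may be shared with near-identical copies. Among translation factors 8 rose and 37 fell of 49, and the sums overlapped. EEF2 and PABPC1 were among the risers, and without them the T30 sum was 0.743 times that of T27, with no overlap. EIF4G2, a factor of cap-independent initiation, had 399, 436 and 401 CPM at T30, against 992, 1022 and 1152 CPM at T27 (log2 change -1.36, SE 0.08, adjusted p = 2.7e-09). SERBP1, which binds ribosomes and mRNA, averaged 975 ± 83.4 CPM at T30 and 1415 ± 73.9 CPM at T27. Of the tRNA synthetases, 4 rose and 7 fell of 17, with no member past 2-fold.

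Genes of protein breakdown and folding in the cytosol fell. Of 41 proteasome genes 37 fell and 3 rose, 90.2% falling against 34.1% of all genes, and the sum was 3946, 4635 and 4332 CPM at T30, against 8188, 7951 and 9374 CPM at T27. PSMB4, of the core particle, averaged 106 ± 12.9 CPM at T30 and 306 ± 31.6 CPM at T27. PSMA5, also of the core, averaged 122 ± 13.6 CPM at T30 and 319 ± 31.9 CPM at T27. PSMC3, of the cap that unfolds substrates, averaged 151 ± 14 CPM at T30 and 359 ± 47.03 CPM at T27. The 3 that rose were less abundant. PSMF1, an inhibitor of the proteasome, averaged 54.7 CPM at T30 and 21.4 CPM at T27. PSMD10, which helps assemble the cap, averaged 11.1 CPM at T30 and 7.95 CPM at T27, and PSMG4, an assembly factor of the core, rose too. Among cytosolic chaperones, 4 rose and 19 fell of 28, and the sum was 0.713 times that of T27. HSPA8, the constitutive HSP70 and the named gene of largest loss, had 6147, 6624 and 6155 CPM at T30, against 7419, 7294 and 8665 CPM at T27 (log2 change -0.30, SE 0.09, adjusted p = 0.009). This is a small fold in a very abundant gene, and its call was lost in the fit of the 6 libraries alone (adjusted p = 0.0506, with adjusted p between 0.000648 and 0.0506 over 13 alternatives). The 3 subunits named here of the chaperonin that folds actin and tubulin fell by larger folds. CCT5 averaged 386 ± 39.7 CPM at T30 and 742 ± 77.1 CPM at T27. CCT2 averaged 341 ± 39.8 CPM at T30 and 639.6 ± 57.3 CPM at T27. CCT8 averaged 253 ± 17.05 CPM at T30 and 486 ± 47.7 CPM at T27. The 4 members that rose, BAG5, HSPB11, HSPB1 and HSPB7, were placed in this list by their names and had means under 25 CPM at both stages.

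**Figure D4:**
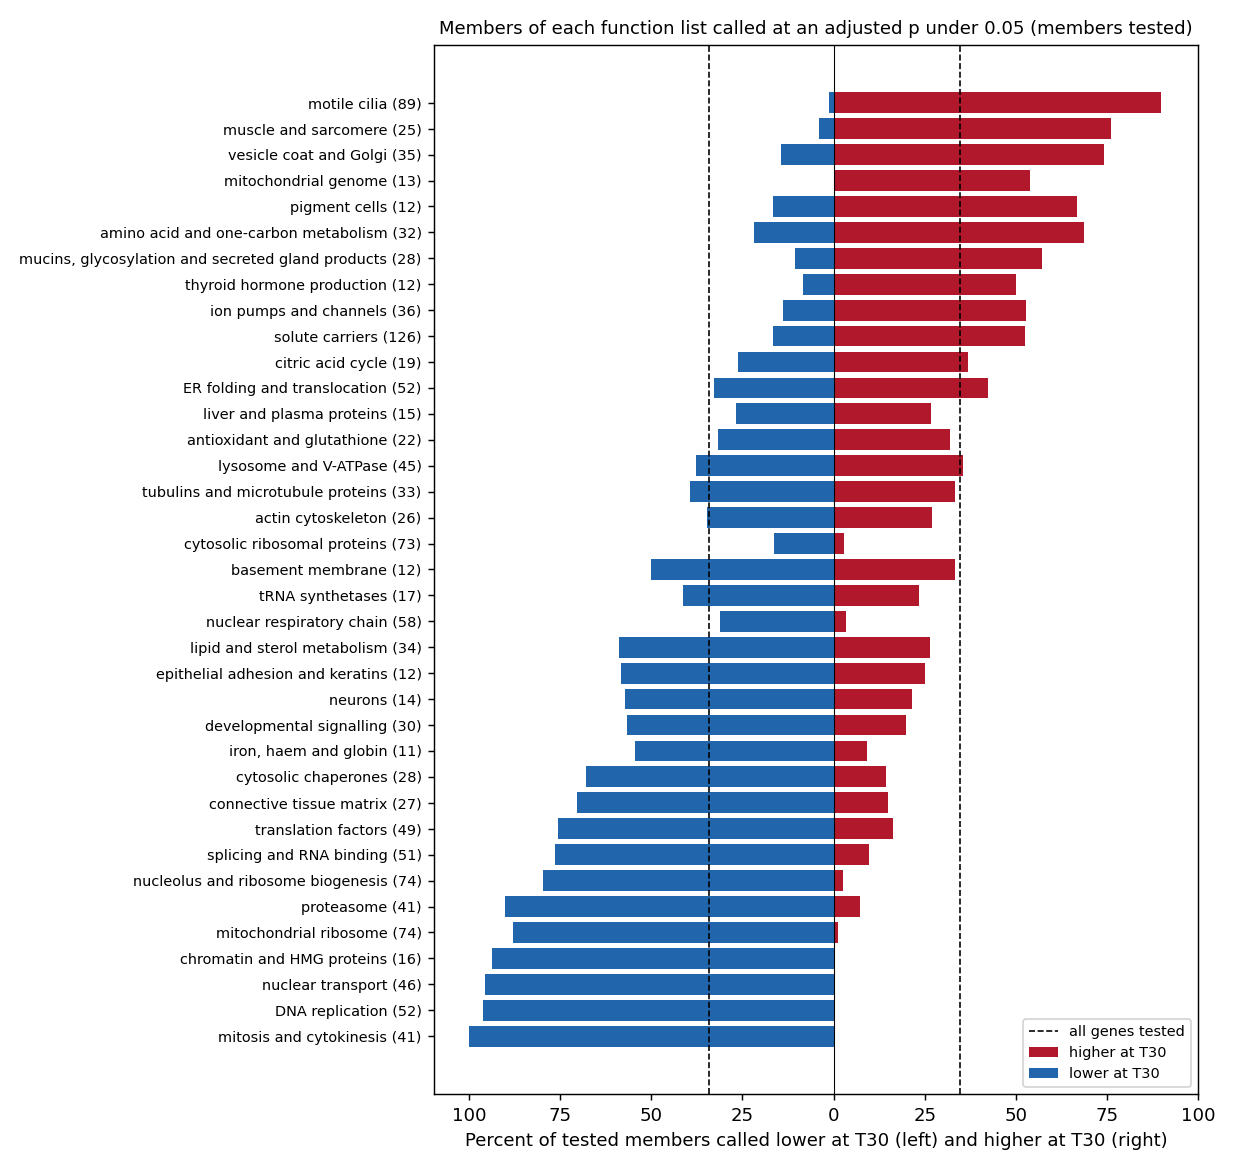
Percent of the tested members of each function list (number in brackets, lists of 10 or more) called higher at T30 (red, to the right) and lower at T30 (blue, to the left). Dashed lines mark the 34.8% higher and 34.1% lower of all genes tested. Motile cilia, muscle and vesicle coats lie beyond the line on the right, and mitosis, DNA replication, nuclear transport, chromatin, mitochondrial ribosome and proteasome beyond it on the left.

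Supporting tissue and adhesion genes mostly fell. In the connective tissue list, 4 rose and 19 fell of 27, and the sum was 1160, 1162 and 1223 CPM at T30, against 2739, 3022 and 2951 CPM at T27. COL6A3, a chain of type VI collagen, had 23.1, 19.4 and 24.02 CPM at T30, against 226, 353 and 250.1 CPM at T27 (log2 change -3.64, SE 0.18, adjusted p = 2.2e-10), the largest fall in fold among abundant named genes. COL6A2, another chain, averaged 37.5 ± 1.76 CPM at T30 and 248 ± 36.3 CPM at T27. The third chain, COL6A1, averaged 66.1 ± 5.33 CPM at T30 and 266 ± 30.8 CPM at T27. All 3 chains fell. FBN2, a microfibril protein of developing tissue, had 79.5, 68.8 and 86.02 CPM at T30, against 511, 509.8 and 472 CPM at T27. ADAMTS12, COL14A1, P4HA3 and FBLN2 were the 4 that rose, ADAMTS12 to 69.4 CPM at T30, against 16.5 CPM at T27. Of 4 cartilage genes tested 1 rose and 2 fell, COL9A1 with 15.2, 19.4 and 18.4 CPM at T30, against 133, 144 and 159.9 CPM at T27. In the basement membrane list, 4 rose and 6 fell of 12, and COL17A1, of the anchoring hemidesmosome, rose (74.95 CPM at T30 and 28.4 CPM at T27), while FREM1 fell (11.2 CPM at T30 and 53.01 CPM at T27). Among epithelial adhesion genes and keratins, 3 rose and 7 fell of 12, and the T30 sum was 0.672 times that of T27. CTNNB1, which links cadherins to actin and carries the WNT signal, had 441, 495 and 446 CPM at T30, against 930.0, 951 and 993 CPM at T27 (log2 change -1.06, SE 0.08, adjusted p = 3e-08). Of developmental signalling genes, 6 rose and 17 fell of 30. The WNT-binding protein SFRP2 averaged 35.9 ± 3.81 CPM at T30 and 166 ± 14.2 CPM at T27. SFRP5, of the same family, averaged 104 ± 9.64 CPM at T30 and 274 ± 5.23 CPM at T27. The receptor FGFR2 averaged 12.4 ± 0.661 CPM at T30 and 74.9 ± 11.7 CPM at T27.

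Lists of further cell types held genes that rose and genes that fell. Of 5 leukocyte genes 1 rose and 3 fell, and the sum, 179, 207 and 168 CPM at T30, against 645, 674 and 771 CPM at T27, was mostly LGMN, which other tissues also make. ALOX5, of leukotriene synthesis, averaged 1.16 ± 0.164 CPM at T30 and 14.1 ± 0.123 CPM at T27. Among liver and plasma proteins, 4 rose and 4 fell of 15, and APOC3, an apolipoprotein, had 2.67, 2.88 and 2.85 CPM at T30, against 49.8, 68.6 and 79.6 CPM at T27. Of neuronal genes, 3 rose and 8 fell of 14. Of pigment cell genes, 8 rose and 2 fell of 12, LTK, a receptor kinase of pigment cell precursors in zebrafish, holding most of the T30 sum (69.8 CPM at T30 and 2.64 CPM at T27). Of 6 neural crest genes 1 rose and 5 fell, PRRX1, a factor of mesenchyme, to 13.5 CPM at T30, against 101 CPM at T27. Of 5 endothelial genes 1 rose and 2 fell, with overlapping sums. In the iron, haem and globin list 1 rose and 6 fell of 11, and FTH1 was the riser. Of 3 stress genes 2 rose and 1 fell, with means under 12 CPM at T30 and at T27. The part of any of these tissues in the other results was not tested.

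Other abundant named genes of large change fell outside these lists. SEPHS1, of the selenophosphate synthetase family, had 241, 284 and 269.7 CPM at T30, against 766, 773 and 888 CPM at T27 (log2 change -1.61, SE 0.09, adjusted p = 6.4e-10). S100A1, a calcium-binding protein, averaged 284 ± 28.3 CPM at T30 and 676 ± 56.6 CPM at T27. HP1BP3, a chromatin protein, averaged 377 ± 23.9 CPM at T30 and 735 ± 15.4 CPM at T27. These 3 fell, as did C5H19orf53, at 846 ± 32.9 CPM at T30 and 1356 ± 68.1 CPM at T27. On the rising side SEL1L3 had 277, 279 and 299.8 CPM at T30, against 29.6, 23.1 and 22.7 CPM at T27. STOM, the membrane protein stomatin, had 176, 204 and 183 CPM at T30, against 24.6, 13.2 and 13.7 CPM at T27. These 2 were among the 10 highest folds of abundant named genes.

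Loci without a name were most of the genes tested and held most of the gain and of the loss. Such loci, 10090 of the 16526 genes tested, held 67.3% of the gain and 56.9% of the loss. LOC116946969, on NC_046096.1 (bases 7214208 to 7235908, plus strand), gained the most of all genes, with 6883, 9102 and 8727 CPM at T30, against 8.96, 2.83 and 2.44 CPM at T27 (log2 change 10.75, SE 0.47, adjusted p = 7.6e-11). It alone held 3.51% of the gain. Per exon length it reached 7242 TPM at T30, between the 6627 TPM of FTH1 and the 8476 TPM of COX1. LOC116946132 gained the next most among these loci, with 7669, 10250.3 and 11152 CPM at T30, against 4228, 3007 and 4144 CPM at T27. LOC116952975 lost the most of all genes, with 1263, 1669 and 1529 CPM at T30, against 5977, 5611 and 7026 CPM at T27. LOC116951639 averaged 6629.5 ± 468 CPM at T30 and 9979 ± 733 CPM at T27. The remaining 3896 unnamed loci that rose added 137757 CPM, and the remaining 2837 that fell together fell by 130815 CPM. Of the 100 genes of largest gain 10 lay on unplaced sequences. Among them 6 loci in groups of near-equal exon length, 1824 bases in 3 of them and 4867 or 4871 bases in the rest, moved alike at 1004 to 1163 CPM at T30 and 300.8 to 386 CPM at T27. Such rows may share reads with near-identical copies, and 3 of the 6 were not called. All 6 lie on NW_022638466.1 and NW_022638467.1, and each spans no more bases than its exon length. What kind of RNA they encode was not determined, and they are counted in the gain and in the 100 genes of largest gain.

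Most of the shift came after T29. The 100 genes of largest gain summed to 79065 ± 5026 CPM at T27, 106242 ± 20286 at T28, 113472 ± 8146 at T29 and 179095 ± 9509 at T30 (SD, n = 3 each), so 34.4% of the gain was in place by T29. The 100 of largest loss summed to 137570 ± 10245, 121114 ± 2980, 114475 ± 8909 and 62068 ± 3664 CPM in the same order, 30.6% of the loss by T29. These sums describe genes chosen on T30 and T27 and are not a test. Single genes differed in timing. AHCY had made 4.69% of its gain by T29, MFRP 0.441% and ACSS1 15.3%, against 55.9% for TMED10, 57.5% for TMED4 and 56.8% for GLUL. Among losses FBN2 had made 72.8% and MCM5 63.3% by T29, KPNA2 42.1%, PSMA6 14.01% and HSPA5 1.95%. T28 replicate 1 stood apart in the gaining set, at 129567 CPM beside 96448 and 92712 CPM in the other 2 T28 libraries, and it entered the test of T30 against T27 through the common estimate of spread.

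**Figure D5:**
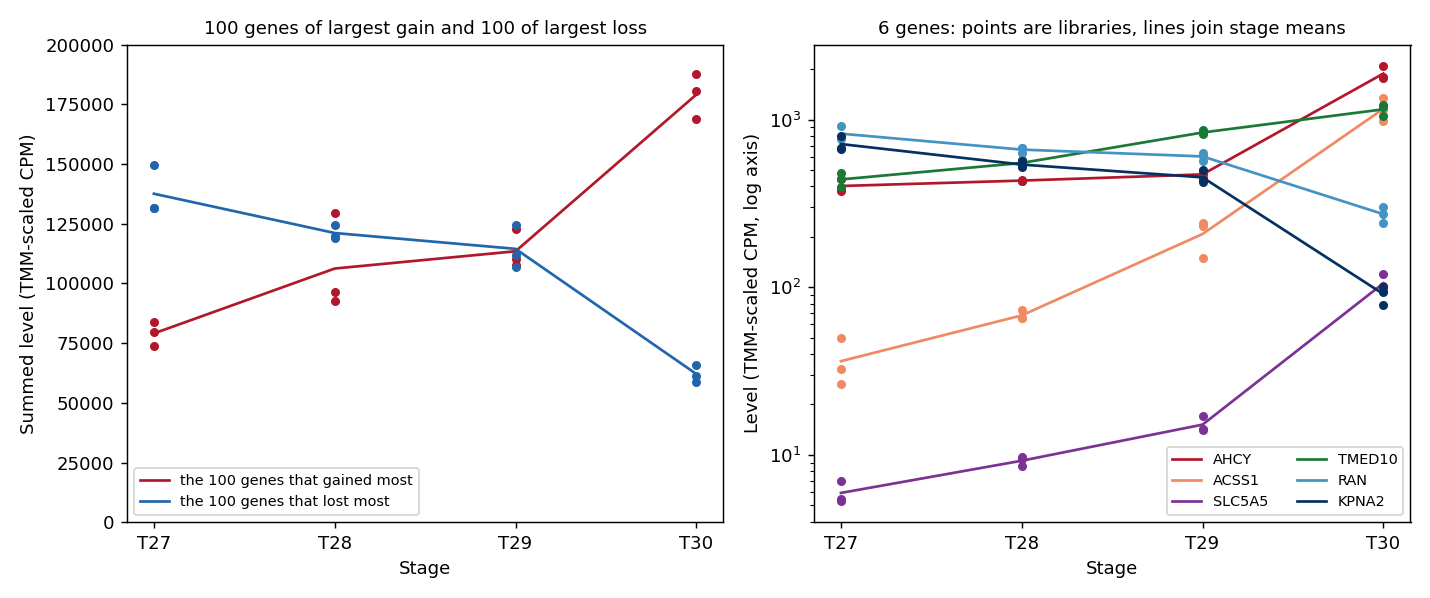
Left, summed level in CPM of the 100 genes of largest gain (red) and the 100 of largest loss (blue) at each of the 4 stages, and right, the level of 6 genes in CPM on a log axis. Points are libraries and lines join stage means. Both sums change most between T29 and T30, and TMED10 climbs at every stage while AHCY stays between 402 and 472 CPM until T29.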

How the data were processed

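Total RNA of lamprey endostyle was extracted with the RNAqueous kit and built into Illumina libraries, per the labels' protocols. The authors deposited raw counts per gene, made with featureCounts 1.6.3 on a kPetMar1 annotation per the file headers. Bowtie2 and DESeq2 were also used, per the submitters' processing notes. Positions and exon lengths are those of the authors' file. No strand option is recorded, so reads of overlapping genes on opposite strands cannot be told apart. A second deposited table of standardised scores was not used here.

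Of 21967 rows, 2171 had no count. Names came from the file for 5895 rows and, by gene ID, from the RefSeq table of UKy_Petmar_22M1.pri1.0, another build, for 688 more. A list member that was not matched by name is not shown to be absent.

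Genes were filtered with filterByExpr (minimum count 10), scaled by TMM and fitted over 12 libraries in edgeR 4.0.16 (R 4.3.3, 8 residual degrees of freedom). The quasi-likelihood test, and glmTreat past 2-fold, were adjusted by Benjamini-Hochberg over 16526 genes. Scripts were tested on simulated data. Means are of TMM-scaled CPM. TPM divides by exon length. Precision is lowest for genes of few counts. DESeq2 1.42.0 and limma 3.58.1 (voom) were alternatives.

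The named genes were the 20 called genes of largest gain and of largest loss in CPM, up to 4 per function list by CPM difference, the 10 highest and lowest folds at 100 CPM or more, and 2 unnamed loci per direction. Other genes are said to be picked after their values were seen, or are the few exceptions of a list. The comparison and its 44 lists were chosen with earlier results of these data known. Sums of a list with a named member left out were added after the values were seen. Some genes of these lists are not reported here and were left out of the lists and their sums.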

Additional observations from a re-analysis of the deposited data

How the results depend on the processing

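Over 13 alternatives (RLE or library-total scaling, no low-count filter, DESeq2, limma voom, the 6 libraries alone, a replicate block, and each of the 6 libraries left out) between 10741 and 11593 genes were called, against 11376, and between 2826 and 3605 past 2-fold, against 3512. The lower ends past 2-fold came from DESeq2. The loss in CPM ran from 231514 to 260835 with a library left out, against 250303, lowest without T27 replicate 3. With library totals the first 100 genes held 30.5% of the loss. Per exon length, as TPM, the loss was 228866 TPM, and the first 100 genes held 55.6% of the gain and 38.9% of the loss. Per exon length the sums of the lists of actin (log2 ratio -0.18), thyroid and pharyngeal regulators (-0.020) and thyroid hormone production (-0.24) turned lower at T30. In the list of thyroid hormone production CTSB, with 987 bases of exon, had 47.21 TPM at T30 and 218.1 TPM at T27. The CTSB row starts at base 4 of the unplaced sequence NW_022638108.1, and whether its exon length is complete was not tested. SLC5A5 had 37.46 TPM at T30 and 2.077 TPM at T27. IYD had 58.23 TPM at T30 and 25.04 TPM at T27, and LRP2 12.73 and 1.409 TPM. The lower sum of this list thus held a fall of CTSB and rises of SLC5A5, IYD and LRP2. The sum in TPM without CTSB was not computed. The cause of the shifts in the other lists was not tested, beyond the change of unit. Of 2470 values of named genes over the alternatives, 38, in 12 genes, lost the call and none turned round. Counts of members of 13 list and direction pairs moved by more than 1.5 times in some setting, mostly in counts of 5 or fewer and in ribosomal proteins. The median log2 change of all genes moved by under 0.1 between scalings. Depth limits genes of few counts, such as SLC7A11 at T27.

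The labels state no pairing of libraries by replicate number, and the correlations given next are too few and too weak to decide it. Same-numbered T30 and T27 libraries had correlations of their deviations of 0.073, -0.059 and 0.11, and 2 of 3 T30 libraries correlated best with another number. With the replicate block 11276 genes were called (5695 higher and 5581 lower), 2225 higher and 1272 lower past 2-fold.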

Other observations

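Genes on the sequence NC_046136.1 of kPetMar1 rose more often than those of any other of the 67 sequences with at least 100 tested genes, a pattern picked out after all 67 were seen and given here as values with no test. Of its 114 tested genes 72 rose (63.2%) and 13 fell (11.4%), against 34.8% and 34.1% of all genes, and 42 were past 2-fold higher at T30. Their median log2 change was 0.88, where the next sequence had 0.25 and the lowest, NC_046125.1, had -0.28. The median of their mean levels, 4.118 CPM, was the lowest of the 67. NC_046135.1, NC_046134.1, NC_046129.1 and NC_046133.1 came next, at 8.423, 9.379, 9.856 and 11.36 CPM. Their median log2 changes were 0.198, 0.135, 0.1704 and 0.247. NC_046126.1 and NC_046130.1 followed, at 12.71 and 13.32 CPM, with 0.0043 and -0.0717. Whether the rise goes with low level or with the sequence was not tested. The median level of the 114 genes was 4.78 to 6.49 CPM over the T30 libraries, against 1.90 to 2.76 CPM over the T27 libraries, with no overlap. It was 3.39 to 4.09 CPM at T29 and 2.52 to 3.11 CPM at T28, where the T28 libraries overlapped those of T27. Only 11 of the 114 carry a name. LOC116956978 averaged 56.8 CPM at T30 and 0.0419 CPM at T27, and LOC116956929 averaged 15.7 CPM at T30 and 0.0104 CPM at T27. Both loci were picked after their values were seen. They were near the floor at T27 and passed the count filter only through other stages, so a fall could not have been seen in them. Among the named genes there, GGCX, the vitamin K-dependent carboxylase, rose (64.8 CPM at T30 and 44.0 CPM at T27), and MAD2L1, of the mitotic checkpoint, fell (11.4 CPM at T30 and 81.6 CPM at T27).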
